A study of Homo sapiens with 3 samples.

Results

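Interferon-stimulated genes were followed in LS174T-tetON-NICD cells. LS174T is a human colon carcinoma line, and in this derivative the Notch intracellular domain (NICD), the signalling fragment released from an activated Notch receptor, is placed under control of doxycycline. The cells received either TNF (tumour necrosis factor alpha) at 50 ng/ml, or doxycycline at 100 ng/ml, or both agents at these doses, each for 24 h. RNA of each treatment was hybridised in Cy3 on 1 oligonucleotide array, against untreated LS174T-tetON-NICD cells in Cy5. The list holds 45 named genes and was drawn up with earlier results of these data known. Of these, 43 had a probe annotated to them, with 48 probes in all, and 42 genes (46 probes) exceeded the blank spots on all 3 arrays, in the treated or the control channel, and entered the comparisons, out of 14529 genes measured in all. IFITM2 and IFITM3 had no annotated probe, and the only SAMD9L probe was above background in no channel but the treated one after both treatments. Since signal was required on each array, no member entered through 1 treated sample alone.

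Each condition had 1 sample and 1 array, dyes were not swapped, and doxycycline in cells without the NICD construct was not analysed here. No test is therefore possible: every ratio below is a value without an error of its own, a count is a count of genes at least 2-fold higher or lower, and effects of NICD, of doxycycline and of the dye cannot be told apart. Fewer responding cells and less RNA per cell cannot be told apart either. The labels do not say whether the tetON-NICD line is 1 clone, nor whether the control RNA of the 3 arrays is 1 extract.

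Interferons are cytokines that cells release on sensing viral nucleic acid. Type I and type III interferons act through receptors bound to the kinases JAK1 and TYK2 and lead to a complex that holds STAT2 and IRF9 and binds the interferon-stimulated response element (ISRE) in promoters; interferon gamma acts through JAK1 and JAK2, and its targets carry the gamma-activated sequence (GAS). The genes so induced encode antiviral effectors, sensors, guanylate-binding proteins and regulators of the pathway itself. IRF1, one of these regulators, is also known as a direct target of NF-kB, the transcription factor that TNF activates.

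Promoter letters are shown here for the 6 members with the highest ratios on the array of both treatments whose promoter holds the ISRE form (GAAA, any 2 bases, GAAA), searched on both strands. The sequences are RefSeq's (GRCh38.p14), 5′ to 3′ on the strand of the gene, cut to 20 bases either side of the outermost matches. Capitals mark the matches, which read TTTC, any 2 bases, TTTC where they lie on the other strand.
IFIT3, chr10:89327821-89327904, + strand: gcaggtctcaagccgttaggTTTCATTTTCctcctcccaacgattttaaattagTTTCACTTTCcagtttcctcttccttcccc
ISG20, chr15:88638927-88638976, + strand: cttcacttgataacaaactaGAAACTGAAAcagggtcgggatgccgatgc
IFIH1, chr2:162318676-162318863, - strand: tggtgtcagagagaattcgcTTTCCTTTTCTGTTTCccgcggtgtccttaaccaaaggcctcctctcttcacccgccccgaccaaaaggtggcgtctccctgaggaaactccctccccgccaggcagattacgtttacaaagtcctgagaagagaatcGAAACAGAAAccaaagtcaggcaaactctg
GBP3, chr1:89022835-89022884, - strand: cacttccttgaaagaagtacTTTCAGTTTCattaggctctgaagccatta
PARP14, chr3:122680790-122680839, + strand: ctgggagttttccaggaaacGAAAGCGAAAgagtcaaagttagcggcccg
IFI27, chr14:94110608-94110670, + strand: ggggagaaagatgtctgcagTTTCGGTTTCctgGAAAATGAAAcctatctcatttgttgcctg

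Promoter windows (250 bases before the gene's start to 50 after) were given for 34 of the 45 members. The ISRE form was found in 23 of them (67.6%), against 996 of 27305 promoters of all genes (3.65%), and 14 members held it more than once. The GAS form TTCNNNGAA was found in 11 members (32.4%), against 7.88% of all promoters, and in 4 of the 11 it overlapped an ISRE match. A form of the NF-kB site (GGG, any 2 bases, TTTCC) was found in OAS3, IFIH1 and GBP4 (8.82%, against 1.92%). IRF1, STAT2 and PARP9 had no ISRE match in this window. Such matches describe letters and not binding.

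Signals are given below as the intensity of a spot less the mean of the blank spots of its channel, averaged over the probes of a gene. The dyes were not balanced: before centring, the median log2 ratio of the deposited probes was -0.0856 with TNF, 0.860 with doxycycline and 0.902 with both treatments (the combined array). Ratios are therefore those after loess normalisation within each array, as log2 of treated over control. A constant of 50 added to both channels pulls the ratios of dim genes towards 0, and 24 of the 42 members had a control signal under 50 on the doxycycline array. For some of those, the signals are given beside the ratio. For others, among them HERC5, HERC6, OAS2, OASL, MX1, RSAD2, XAF1, GBP1, GBP4 and IRF2, the ratio stands without signals. A ratio near 0 of such a dim gene does not show that it was unchanged. Signals are not corrected for the dye balance, so a treated signal does not compare directly with its control. Nor do treated signals of the TNF array compare directly with those of the other arrays.

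The TNF array differed from the others in its treated channel. Of 8004 probes with a control signal above 100 on all arrays, 176 had a treated signal no higher than the blanks there, against 0 on each of the other arrays, and the SD between probes of the same gene was 0.739 on the log2 scale, against 0.241 (doxycycline) and 0.295 (combined). TNF was therefore also read from cells that had doxycycline as well, as the difference between the ratios of the combined and doxycycline arrays, without the TNF array. The control channels were closer to each other: between arrays the log2 control levels of the 42 members differed with an SD of 0.0733 to 0.140, the largest difference was 0.365 (TRIM22), and 0 members differed by 2-fold. Among markers of colonic epithelium, the control signals of EPCAM (8420 to 9170) and KRT18 (17200 to 17900) were high, and 9 of the 10 were measured. KRT20 was dim (17.5 to 21.8). CDX1 (-3.88), CDX2 (-2.67) and CDH1 (-1.75) were low on the TNF array, while MUC2 stood at 1.28 with TNF, -1.55 with doxycycline and -1.48 with both, and the part of these changes in the results was not tested. Of 6 leukocyte markers, PTPRC was above background in no channel. CD3E was above it in the treated channel of the doxycycline and combined arrays alone (1 of its 2 probes, at 6.08 and 7.66). CD14 (28.0 to 38.1), CD68 (102 to 128) and LYZ (250 to 285) were measured. The summed treated signal of these 3 was 420 with TNF, 653 with doxycycline and 1380 with both, over control sums of 390 to 449. These sums are not corrected for the dye balance, and the part of these markers in the results was not tested. The collagen genes COL1A1 and COL1A2 were above background in no channel, and COL3A1 in the control of the TNF array alone (3.44).

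With TNF and doxycycline together, 12 of 42 members (28.6%) were at least 2-fold higher than control, where 3.17% of all genes were, and 0 were at least 2-fold lower, where 2.13% of all genes were. The median over the members was 0.58, with a range of -0.46 to 2.15, against 0.00 over all genes. In all, 38 of 42 stood above 0, where 50.7% of all genes did. The 12 genes were IFIT3, ISG20, IFIH1, TRIM22, IFIT2, IRF1, GBP3, PARP14, IFI27, ISG15, IFI6 and PARP9. The count was 22 of 42 in the authors' processed values (8.27% of all genes), 17 with an added constant of 16 (4.55%), and 4 where the surroundings of each spot were subtracted (local background, 2.54%). IFI27, ISG15, ISG20 and IFIH1 stayed past 2-fold under all 10 alternatives tried, and the other 8 fell below it under 1 of them, the local background. IFI27, ISG15, ISG20 and IFIH1 were each read by 1 probe. Alternatives that change only the probe filter, the choice of probe or the average intensities therefore could not move their ratios.

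**Figure D1:**
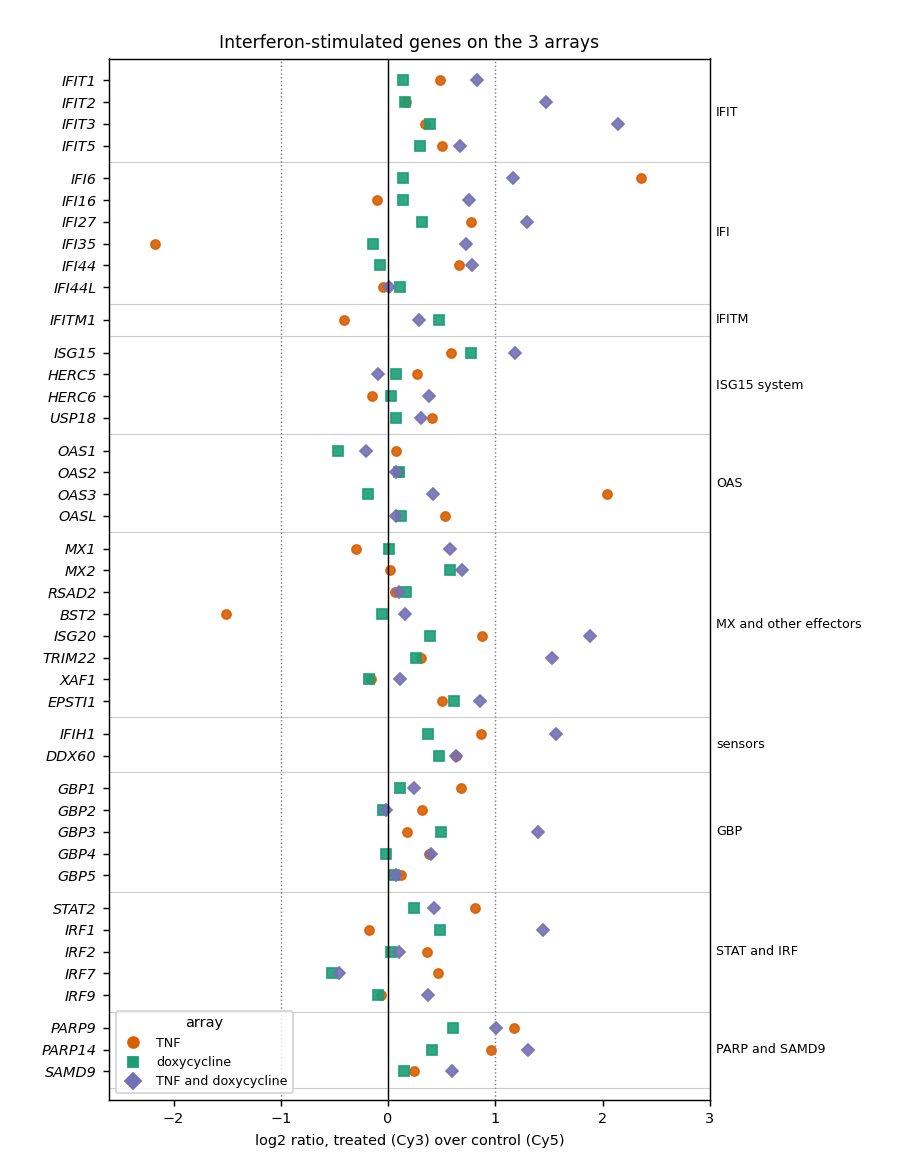
The log2 ratio of treated over control (x axis) is plotted for the 42 measured members, grouped by role, with 1 symbol per array and dotted lines at 2-fold in either direction. On the combined array the 12 members past 2-fold all lie to the right, while on the TNF array IFI35 (an upper limit) and BST2 lie far to the left and IFI6 and OAS3 far to the right.

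With doxycycline alone, 0 of 42 members were at least 2-fold higher or lower, where 1.18% and 0.406% of all genes were. The ratios ran from -0.52 (IRF7) to 0.78 (ISG15), with a median of 0.14 against 0.01 over all genes. In all, 32 of 42 were above 0, where 52.8% of all genes were. The count of higher members was 4 in the authors' processed values, where 3.67% of all genes were, 2 with median centring (3.72%), and 1 each with an added constant of 16 (1.68%) and with the local background (1.56%).

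With TNF alone, 3 of 42 members were at least 2-fold higher (IFI6, OAS3 and PARP9), where 1.80% of all genes were, and 2 were at least 2-fold lower (IFI35 and BST2), where 12.3% of all genes were. The median was 0.33 against -0.01 over all genes, and 32 of 42 were above 0, where 48.3% of all genes were. Counts of higher members were 17 in the authors' processed values, where 13.9% of all genes were, 6 with median centring (5.24%) and with an added constant of 16 (2.97%), and 5 with the local background (1.89%). The 5 genes named here stayed past 2-fold under every alternative that gave them a value. Each was read by 1 probe, so only changes of background, added constant or centring, and the authors' values, could move its ratio. With TNF on top of doxycycline, which does not use the TNF array, 6 members were at least 2-fold higher (IFIT3, ISG20, IFIT2, TRIM22, IFIH1 and IFI6), where 1.18% of all genes were, and 0 were lower, where 0.909% of all genes were. The median there was 0.39 against 0.00, and 36 of 42 members were above 0, where 49.4% of all genes were. The count of 6 was 15 in the authors' processed values (3.95% of all genes), 12 with an added constant of 16 (1.78%), and 3 with the local background (1.14%), where ISG20 and IFIH1 of the 6 stayed. Of the 3 genes higher with TNF alone, IFI6 was past 2-fold in this reading too (1.03), while OAS3 stood at 0.61 and PARP9 at 0.40.

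**Figure D2:**
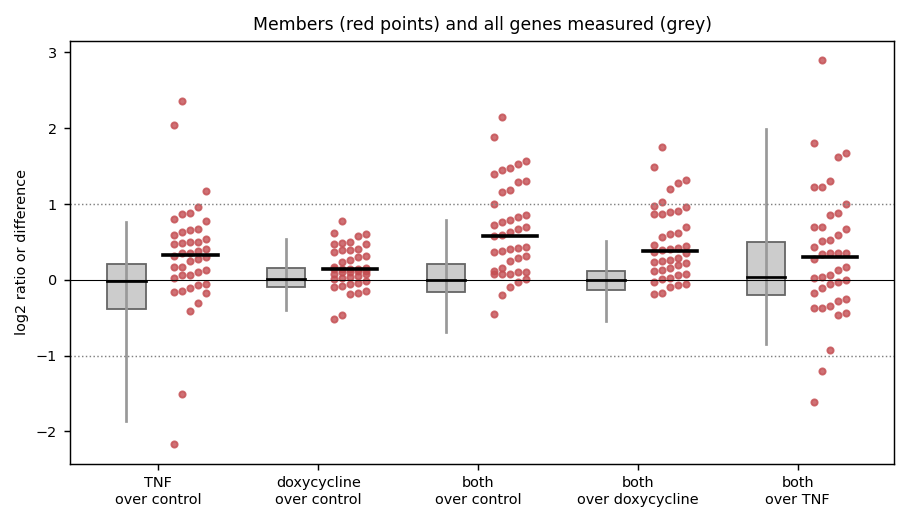
For each comparison (x axis), the log2 ratio or difference (y axis) of the 42 members is shown as red points with their median as a thick line, beside all 14529 genes in grey (line from the 5th to the 95th percentile, box from the 25th to the 75th, black line at the median). The members' median lies above that of all genes in each comparison, from 0.14 with doxycycline to 0.58 with both treatments, and the grey ranges of the comparisons that hold the TNF array are the widest.

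With both treatments over TNF alone, 8 members were at least 2-fold higher, where 14.0% of all genes were, and OAS3 and IFI6 were lower, where 3.29% of all genes were. The 8 were IFI35, IFIT3, BST2, IRF1, IFIT2, TRIM22, GBP3 and ISG20. Their share of 19.0% lies near that of all genes. For IFI35 and BST2 the treated signal on the TNF array was 4.39 and 5.48. The count of 8 was 2 with the local background, where 9.57% of all genes were. It was 16 in the authors' processed values, where the share of all genes past 2-fold was higher too. That share is not given here, so the count of 16 is not a result about the members. The median was 0.31, against 0.03 over all genes, with 28 of 42 above 0, where 53.4% of all genes were.

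The IFIT genes encode tetratricopeptide proteins that bind foreign RNA and hold back its translation. All 4 were dim in the control, at 6.21 to 53.4. IFIT3 had control signals of 11.4 (TNF array), 8.17 (doxycycline array) and 6.93 (combined array), the order kept below, and treated signals of 23.2, 42.9 and 339. The treated signal was thus high with both treatments only, and the log2 ratios were 0.35, 0.39 and 2.15 (4.43-fold with both). Since its control lies so near the blanks, the size of this ratio depends on the processing: the authors' processed value was 4.71 on the combined array, and with the local background it was 0.22, as the scanner gave 362 for the surroundings of a spot of 404. That local reading followed spot brightness over all probes (r on the log scale of 0.917 across 24457 probes of the combined array, which share 1 array and are not independent).

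IFIT2 was read by a pair of probes, whose mean treated signal was 17.2 with TNF, 34.7 with doxycycline and 217 with both, over control signals of 13.7, 13.2 and 14.5. Its ratios were 0.17, 0.16 and 1.47, and the probes stood at 1.53 and 1.42 on the combined array. IFIT2 was therefore near its control with each single treatment and 2.77-fold higher with both. IFIT1 had treated signals of 28.4, 21.2 and 90.4 over control signals of 10.0, 6.21 and 8.05, and ratios of 0.48, 0.14 and 0.83. IFIT5, the brightest of the 4 in the control (42.9 to 53.4), had the lowest ratio of the family on the combined array, 0.67, after 0.51 with TNF and 0.30 with doxycycline.

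The IFI genes are named for induction by interferon and share no single function. IFI6, a mitochondrial and endoplasmic reticulum protein, had control signals of 215, 159 and 164 and treated signals of 1790 with TNF, 315 with doxycycline and 751 with both. It was the member with the highest ratio on the TNF array, 2.36 (5.14-fold), and stood at 0.14 with doxycycline and 1.16 with both. Its ratio with both treatments was thus lower than with TNF alone, by 1.20 on the log2 scale.

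IFI27, another membrane protein of this group, was bright in the control (827 to 975) and had treated signals of 2630, 1940 and 3740. Its ratios were 0.78, 0.32 and 1.29. IFI44 stood at 0.66, -0.08 and 0.79, with control signals of 18.4 to 22.0, while its neighbour IFI44L stood at -0.05, 0.11 and 0.01, with control signals of 10.1 to 12.6. IFI44L was thus among the members with a ratio close to 0 on each array.

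IFI16, a nuclear DNA sensor, had ratios of -0.10, 0.14 and 0.76 over 2 probes. On the TNF array these probes went apart, at 0.71 and -0.91, with treated signals of 561 and 59.7, while both were above 0 on the combined array (0.95 and 0.57). IFI35, which binds the interferon-induced protein NMI, had control signals of 250, 215 and 220 and treated signals of 4.39, 338 and 699. The TNF value did not exceed the blanks, so its ratio there is at most -2.17, next to -0.14 with doxycycline and 0.73 with both. Its only probe thus had almost no treated signal on 1 of the 3 arrays.

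IFITM1, a membrane protein that blocks virus entry, was the brightest member, with control signals of 4320 to 5030 and treated signals of 6310, 11300 and 9870. Its ratios were -0.41, 0.48 and 0.29. The TNF ratio turned to 0.41 in the authors' processed values and 0.30 with median centring, so no direction is given for it.

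**Figure D3:**
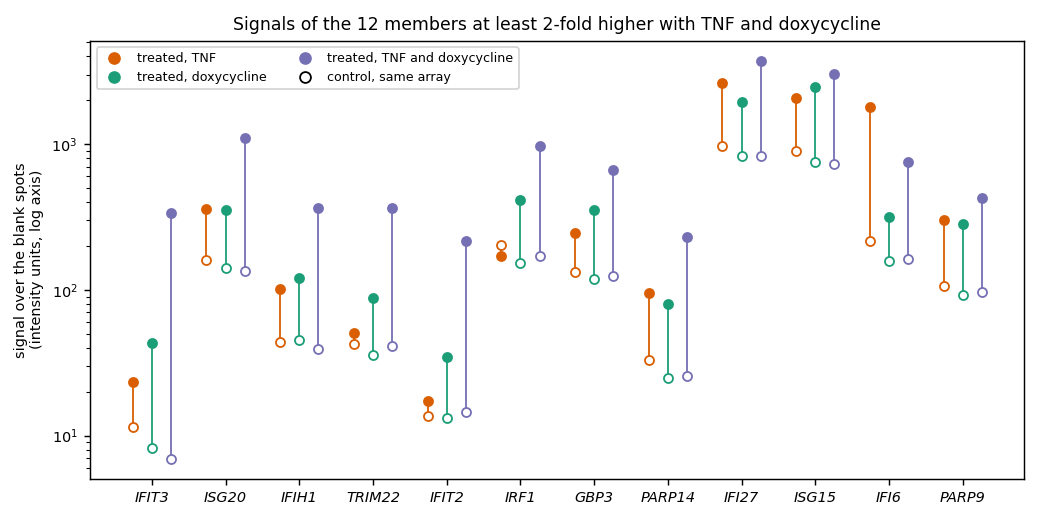
Signals over the blank spots (y axis, log scale, intensity units) are shown for the 12 members at least 2-fold higher with both treatments, in order of that ratio, as open circles for the control and filled circles for the treated channel of the same array. The treated signal of the combined array is the highest in each gene but IFI6, which is brightest on the TNF array, at 1790. These signals are not corrected for the dye balance, so gaps to the TNF array do not compare directly. After normalisation the log2 difference of both treatments over TNF was 0.70 for IFIH1 and 0.34 for PARP14.

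ISG15 is a ubiquitin-like protein, HERC5 and HERC6 are ligases of the family that attaches it, and USP18 removes it and damps the interferon receptor. ISG15 had control signals of 896, 755 and 727 and treated signals of 2070, 2470 and 3030. Its ratio was 0.59 with TNF, 0.78 with doxycycline, the highest member ratio there with the added constant of 50, and 1.18 (2.27-fold) with both. In the authors' deposited table the dim genes EPSTI1 (2.37), MX2 (1.63), SAMD9 (1.59), IFIT3 (1.53) and IFIT1 (0.91) stood above ISG15 (0.85) with doxycycline. With the added constant, the single ratios of ISG15 did not differ by more than the largest gap between control channels (0.365). In the authors' table they lay further apart than that, at 1.30 with TNF and 0.85 with doxycycline. USP18 stood at 0.41, 0.07 and 0.31 with control signals of 205 to 234. HERC5 (0.27, 0.08 and -0.10) and HERC6 (-0.14, 0.03 and 0.39) were dim. The authors' processed values gave -1.23 with TNF and 1.35 with both treatments for HERC6.

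The OAS genes encode synthetases of an oligoadenylate messenger that activates RNase L. OAS3 had control signals of 410, 319 and 342 and treated signals of 2700 with TNF, 499 with doxycycline and 841 with both. The TNF signal was far above the others, and the ratios were 2.04 (4.11-fold), -0.18 and 0.42. OAS1 had treated signals of 344, 322 and 354, not corrected for the dye balance, and ratios of 0.07, -0.46 and -0.20. OAS2 (0.10, 0.10 and 0.07) and OASL (0.54, 0.12 and 0.07) were dim. No OAS gene was thus past 2-fold with both treatments. The authors' processed values gave 1.59 for OASL with TNF.

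Among the other antiviral effectors, ISG20, an exonuclease that degrades RNA, had control signals of 160, 142 and 135 and treated signals of 359, 352 and 1100. The signals of the single treatments were nearly equal only before the dye balance was corrected. The ratios were 0.88, 0.39 and 1.88 (3.68-fold with both). TRIM22, a ubiquitin ligase that restricts several viruses, had treated signals of 50.8, 87.6 and 364 over control signals of 42.7, 36.0 and 40.9, and ratios of 0.30, 0.26 and 1.53. Both genes were thus highest with both treatments, and both stayed past 2-fold over doxycycline (1.49 and 1.27).

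EPSTI1, a gene induced by interferon and by stromal contact, had treated signals of 28.5, 57.2 and 88.3 over control signals of 6.08 to 9.10, and ratios of 0.50, 0.61 and 0.86. The dynamin-like GTPase MX1 stood at -0.30, 0.01 and 0.58, and its relative MX2 at 0.02, 0.57 and 0.69. A second MX2 probe, left out of this mean, was above background in no control channel and had treated signals of 87.1 with doxycycline (at least 2.16-fold higher) and 68.7 with both (at least 1.78-fold). RSAD2, whose product viperin makes a chain-terminating nucleotide, stood at 0.06, 0.17 and 0.10, and the apoptosis-linked XAF1 at -0.15, -0.17 and 0.11. With the constant of 50 these genes thus stood within 2-fold of control on every array. The authors' deposited table instead gave 2.37 (doxycycline) and 2.86 (both) for EPSTI1 and 1.63 and 1.90 for MX2. It also gave 1.73 for EPSTI1 with TNF, and -1.65 with TNF and 1.11 with both for MX1.

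BST2, or tetherin, holds budding virus at the cell surface. Its treated signals were 5.48 with TNF, 200 with doxycycline and 260 with both, over control signals of 142, 123 and 126. The ratios were -1.51, -0.06 and 0.16, so that BST2, like IFI35, had a low value on the TNF array only.

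The sensors IFIH1 (MDA5) and DDX60 are helicases of the viral RNA response. IFIH1 had treated signals of 102, 121 and 366 over control signals of 43.8, 45.3 and 39.3. Its ratios were 0.87, 0.37 and 1.57 (2.96-fold with both), and it stood at 1.20 over doxycycline. DDX60 had treated signals of 113, 153 and 221, and its ratios of 0.63, 0.47 and 0.63 were alike on the 3 arrays.

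Guanylate-binding proteins are GTPases that gather on the vacuoles of intracellular microbes, and their genes are neighbours on chromosome 1. GBP3 differed from the rest of the family on the combined array: its ratios were 0.17, 0.49 and 1.40, with mean treated signals of 245, 353 and 669 over control signals of 119 to 132. On the TNF array its probes stood at 0.71 and -0.36, and on the combined array at 1.25 and 1.55. GBP1 stood at 0.68, 0.11 and 0.24, and its probes also went apart on the TNF array, at 1.21 and 0.14.

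GBP2, with control signals of 111 to 128, stood at 0.32, -0.05 and -0.02. GBP4 stood at 0.39, -0.02 and 0.40, and GBP5 at 0.13, 0.06 and 0.07 with control signals of 4.31 to 8.06. As a mean over its probes and with the added constant, only GBP3 of the 5 was past 2-fold, and 1 GBP1 probe was (with TNF). The authors' processed values instead gave 1.2 for GBP4 with both treatments and 1.0 for GBP1 with TNF. The probe sequences were not used here, so signal shared between near-identical family members (GBP, IFIT, IFITM and MX genes) was not tested.

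The interferon regulatory factors and STAT2 are the transcription factors of the list. IRF1 had control signals of 203, 154 and 172 and treated signals of 171 with TNF, 414 with doxycycline and 975 with both. Its ratios were -0.17, 0.48 and 1.45 (2.73-fold with both), and it stood at 0.96 over doxycycline. IRF1 was thus near its control with TNF alone, as read by 1 probe on the TNF array. Probes of the same gene differed there with an SD of 0.739, so a lack of change was not shown. STAT2 had treated signals of 548, 468 and 553 and ratios of 0.81, 0.24 and 0.43.

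IRF7, which drives type I interferon genes, was the lowest member with doxycycline and with both treatments. Its treated signals were 774, 393 and 403 over control signals of 410, 331 and 327, and its ratios 0.47, -0.52 and -0.46. IRF9, the DNA-binding partner of STAT2, was dim in the control (8.75 to 10.3), with treated signals of 4.74, 13.6 and 45.6 and ratios of -0.07, -0.09 and 0.37. IRF2, a repressor of the pathway, stood at 0.36, 0.03 and 0.11. With the added constant, IRF1 alone of the 5 factors was past 2-fold on any array. The authors' processed values instead gave 1.28 for STAT2 and 1.0 for IRF7 with TNF, and 1.48 for IRF9 with both treatments. In those values IRF1 stood at 1.6 with both, and IRF2 stayed within 2-fold (0.96 with TNF).

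PARP9 and PARP14 are members of the ADP-ribosyltransferase family. PARP9 had control signals of 107, 92.5 and 96.4 and treated signals of 304, 284 and 424, with ratios of 1.18, 0.61 and 1.01. PARP14 had control signals of 33.2, 24.9 and 25.6 and treated signals of 94.5, 80.6 and 231, with ratios of 0.96, 0.41 and 1.30. Both genes thus stood above control on all 3 arrays, as 25 of the 42 members did, where 23.5% of all genes did. SAMD9, an inhibitor of poxviruses, had treated signals of 15.1 with doxycycline and 57.0 with both, over controls of 2.76 and 5.30, and ratios of 0.24, at least 0.15 and 0.59.

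**Figure D4:**
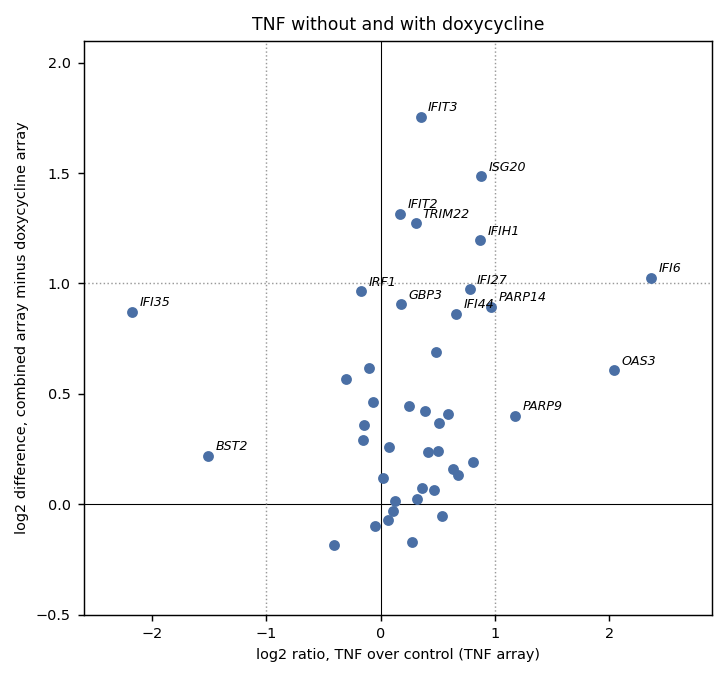
Each point is 1 of the 42 members, with the log2 ratio of TNF over control on the TNF array (x axis) and the log2 difference between the combined and doxycycline arrays (y axis), which do not share an array, and dotted lines at 2-fold. IFI6 lies past 2-fold on both axes, IFIT3, ISG20, IFIT2, TRIM22 and IFIH1 on the y axis alone, and IFI35 and BST2 lie far to the left with y values of 0.87 and 0.22.

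On the combined array 25 of the 42 members had a higher ratio than on either single array, where 36.6% of all genes did. Of the 12 genes past 2-fold there, IFI6 and PARP9 had a higher ratio with TNF alone. The combined ratio exceeded the sum of the single ratios in 22 of 42, where 52.2% of all genes did, a share near the background. IFIT3 stood above its sum by 1.41, IFIT2 by 1.14, IRF1 by 1.14 and TRIM22 by 0.97. IFI35 (at least 3.05) and BST2 (1.73) stood higher still, by way of their low TNF values, and OAS3 (-1.43) and IFI6 (-1.34) stood furthest below. Every such sum holds the TNF array.

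Among the members with a promoter entry, the 22 measured ones with an ISRE match had a median ratio of 0.73 on the combined array, with 8 past 2-fold, and the 10 without had a median of 0.41, with 2 past 2-fold. The values are a description, as members of 1 family share sequence and array.

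The rest of the pathway was read from 75 further genes listed by role, of which 61 were measured. With both treatments 15 of these (24.6%) were at least 2-fold higher, against 3.17% of all genes, and 0 were lower. With doxycycline 3 (4.92%) were higher, against 1.18%, and 0 lower. With TNF 7 were higher (11.5%, against 1.80%) and 7 were lower, also 11.5%, which is near the 12.3% of all genes. The combined array held 8 higher (13.1%, against 1.18%) and 0 lower than the doxycycline array.

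The interferon genes themselves gave low signals. IFNA1 and IFNG were above background in no channel, IFNE and IFNL3 were so in some channels only and at no more than 7.45, IFNB1 had treated signals of 8.76, 12.9 and 8.11, and IFNL1 had 3.54, 7.57 and 6.37. IFNA2 and IFNK stood within 0.21 of their controls on the log2 scale. The 4 ligand genes measured were thus near background or near their controls on every array.

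Of the 6 receptor genes, 4 were past 2-fold with both treatments. IFNGR1, which binds interferon gamma, had treated signals of 1250, 1490 and 5290 over control signals of 439, 386 and 387, and its ratios were 0.96, 0.98 and 2.80 (6.97-fold with both). Its partner IFNGR2 stood at 0.93, 1.00 and 1.79, and IL10RB, a shared subunit of the interferon lambda receptor, at 1.47, 1.15 and 1.23. IFNAR2 stood at 0.58, 0.53 and 1.04, while IFNAR1 was dim (0.20, 0.15 and 0.10) and IFNLR1 stood at -0.43, -0.23 and -0.33. Of the kinases, JAK2 stood at 0.74, 0.82 and 1.66, JAK1 at -0.88, 0.17 and 0.47, and TYK2 at 0.93, -0.03 and -0.17. With the kinases, 5 of 9 genes were past 2-fold with both treatments (55.6%, against 3.17% of all genes), among them both chains of the interferon gamma receptor and JAK2.

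Of the transducers and sensors, TLR3, which detects double-stranded RNA, stood at 1.37, 0.69 and 1.83, and RIGI, the sensor of viral RNA ends, at 1.45, 0.42 and 1.53. IKBKE, a kinase that phosphorylates IRF3 and IRF7, stood at 0.40, -0.18 and 1.01. IRF3 (-1.59), IRF8 (-2.16) and STING1 (-2.17) were past 2-fold lower on the TNF array. Each was read by 1 probe, with treated signals there of 7.26, 11.5 and 40.7. With both treatments IRF3 and IRF8 stood at 0.14 and 0.02, while STING1 was below its control on the other arrays too (-0.53 with doxycycline and -0.83 with both). The inhibitor SOCS1 was dim (0.11, 0.04 and -0.03) and SOCS3 was above background only in the control of the TNF (5.44) and doxycycline (3.31) arrays. UBE2L6, the conjugating enzyme of ISG15, stood at 0.97, 0.50 and 1.11.

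Further interferon-stimulated genes outside the list gave 6 of 31 at least 2-fold higher with both treatments (19.4%, against 3.17% of all genes). This count leaves out the chemokines CXCL10 and CXCL11, ligands of CXCR3 that draw T cells, since neither channel of the doxycycline array was above background for them. CXCL10 had treated signals of 753 with TNF, 1.25 with doxycycline and 402 with both, over control signals of 1.42, 0.824 and 2.79, none above background. It was at least 15.3-fold higher with TNF and at least 5.47-fold higher with both. CXCL11 had treated signals of 265, 2.66 and 248 over control signals of 3.77, 1.84 and 2.38, and was 6.29-fold higher with TNF and at least 3.80-fold higher with both. Both chemokines were thus bright on the arrays with TNF and at the blanks with doxycycline alone. PLSCR1, a phospholipid scramblase with antiviral activity, had treated signals of 1020, 3740 and 8260 over control signals of 525, 409 and 470, and ratios of 0.45, 2.17 and 3.18. It was the only one of these genes past 2-fold with doxycycline alone. The immunoproteasome subunits PSMB9 (1.80, 0.52 and 2.13) and PSMB10 (-2.31, -0.11 and 1.23) and the peptide transporter TAP1 (-0.81, 0.07 and 1.30) followed, with SP110 (1.30, 0.79 and 1.10) and the RNA-dependent kinase EIF2AK2 (0.33, 0.68 and 1.01). PSMB10 was thus past 2-fold in opposite directions on the TNF and combined arrays. Its TNF value rests on 1 probe with a treated signal of 9.70 over a control of 306, low like those of IFI35 and BST2. Whether TNF lowered it was not tested. On the TNF array TDRD7 (1.12) and TRIM21 (1.09) were past 2-fold higher. PSMB8 (-2.33), LGALS3BP (-1.92) and TRIM14 (-1.40) were lower there, with treated signals of 67.1, 17.3 and 8.83.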

How the data were processed

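Total RNA was amplified, coupled to Cy5 or Cy3 and hybridised to oligonucleotide arrays, per the labels' protocols. The deposited scanner files give the median intensity of each spot and of its surroundings in both channels on a linear scale, joined from scans at several gains, per the file headers. The authors deposited log2 values in the series table; all 18330, 19535 and 19605 of them (in the order TNF, doxycycline, both) differed by less than 0.001 from log2 of Cy3 over Cy5 above the blanks, centred on the array's median, so the direction is treated over control. Arrays were corrected with normexp (saddle fit, offset 50, background set to the 5% trimmed mean of 2680 blank spots) and loess in limma 3.58.1 (R 4.3.3), checked on simulated arrays. Background was set at the 95th percentile of the blanks, and a probe was kept where, on all 3 arrays, either channel lay over it; 3 probes marked bad were dropped, and probes of 1 gene were averaged. Of 24460 gene probes 20236 had 1 symbol, 0 had several and 4224 had none; 2899 symbols were updated and 99 kept without a match. No member spot was near saturation at 65535. Python 3.11.15, pandas 2.3.3, numpy 2.4.6 and matplotlib 3.10.9 were used.

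The members, lists and rules were chosen with earlier results of these data known. All members are named; pathway genes are named when past 2-fold on an array, as are the receptors, kinases and SOCS genes, with IFN ligands and others that are no members named for contrast after their values were seen. The number of arrays limits the precision.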

Additional observations from a re-analysis of the deposited data

Results flagged for a closer look

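IFI35 is listed because the TNF ratio without doxycycline and the one with it went opposite ways by more than the largest gap between control channels (0.365): TNF over control gave at most -2.17, and TNF on top of doxycycline gave 0.87. The difference was not tested, since each value rests on 1 probe and 1 array per condition. The treated signal on the TNF array (4.39) did not exceed the blanks.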

How the results depend on the processing

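No paired analysis was possible because every condition had a single array. Of the counts of members at least 2-fold higher (3 TNF, 0 doxycycline, 12 combined, 6 combined over doxycycline, 8 combined over TNF), the authors' processed values gave 17, 4, 22, 15 and 16, normexp offset 16 gave 6, 1, 17, 12 and 11, median centring 6, 2, 14, 9 and 11, and the local background 5, 1, 4, 3 and 2, in that order. Of the counts lower (2 with TNF, 2 combined over TNF), the authors' values gave 4 and 4, and keeping only probes above background in both channels gave 1 with TNF. The other counts stayed within 1.5 times. With TNF, 22.0% of all genes were lower in the authors' values and 12.4% with both channels above background, against 12.3% in the main setting. Of all genes, 13.9% were higher there in the authors' values, 5.24% with median centring and 2.97% with offset 16, against 1.80%. A count whose share of all genes is given neither here nor above is not a result about the members. No ratio past 2-fold changed sign in any of the 33 results. Aquantile leaves ratios as they are by construction, as do the probe filters and the brightest probe for a gene with 1 probe. Median centring moved the median of all genes to 0.142 with doxycycline, 0.134 on the combined array and 0.147 combined over TNF. Leaving the TNF array out of the filter, an alternative chosen after seeing the data, changed no count. Signal over background limits the IFIT, OAS2, GBP5, IRF9 and SAMD9 values.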
